A study of Rattus norvegicus with 12 samples.

Results

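The genes described here are 10 members of the canonical Wnt pathway, the secreted antagonists Sfrp1, Sfrp2, Sfrp4, Dkk2, Dkk3 and Wif1 and the intracellular genes Axin2, Lef1, Tcf7l2 and Ctnnb1. They were taken by symbol from the 17312 gene symbols of each library, and all 10 were listed. Of the 10, 8 reached an expression of at least 1 FPKM (mapped fragments scaled for transcript length and library size) in at least 3 of the 12 libraries and were tested among 10518 such genes. Axin2 and Dkk2 stayed under that filter.

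The libraries were made from cultured ventricular cardiomyocytes of newborn Wistar rats, which received either an siRNA against Wnt5a or a control siRNA and were either stretched or left unstretched. The 4 groups of 3 libraries are stretched Wnt5a siRNA, stretched control, unstretched Wnt5a siRNA and unstretched control, where control means control siRNA. How far and how long the cells were stretched is not stated in the labels, nor whether replicates came from separate cultures. The p-values therefore rest on how much libraries vary within their groups, pooled over the 4 groups and drawn towards the spread of other genes. That variation may be technical. Primary cultures of this kind can hold other heart cells beside cardiomyocytes.

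In canonical Wnt signalling a secreted Wnt protein binds a Frizzled receptor with its co-receptor Lrp5 or Lrp6, which stops a cytoplasmic destruction complex from marking beta-catenin for degradation. Beta-catenin, encoded by Ctnnb1, then enters the nucleus and joins transcription factors of the TCF/LEF family such as Lef1 and Tcf7l2. Sfrp proteins and Wif1 bind Wnt proteins outside the cell, Dkk proteins of the classical kind act on the Lrp co-receptors, and Axin2 is a scaffold of the destruction complex whose transcription is itself a common readout of the pathway. Wnt5a is mostly known as a ligand of the beta-catenin-independent branches. The question taken up here is whether stretch, siRNA against Wnt5a, or both go with a change of these transcripts.

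TCF/LEF factors recognise DNA that contains the letters CTTTGAT, and Axin2 is the member most often read as their target. RefSeq promoter windows of the rat assembly GRCr8, 300 bases long with 250 before and 50 after the annotated start, were found for 6 of the 10 members, namely Axin2, Ctnnb1, Lef1, Sfrp2, Tcf7l2 and Wif1. A search for CTTTGAT on either strand (ATCAAAG in reverse) found it in 1 of these 6, Axin2, against 3.63% of 33469 windows. The 250 bases before the start are shown for Axin2, because it holds the motif, and for Tcf7l2, because its transcript changed in 4 of the 5 comparisons. They lie on the + strand at chr10:94398535-94398784 for Axin2 and at chr1:264791085-264791334 for Tcf7l2, written 5′ to 3′ with the motif in capitals.
Axin2: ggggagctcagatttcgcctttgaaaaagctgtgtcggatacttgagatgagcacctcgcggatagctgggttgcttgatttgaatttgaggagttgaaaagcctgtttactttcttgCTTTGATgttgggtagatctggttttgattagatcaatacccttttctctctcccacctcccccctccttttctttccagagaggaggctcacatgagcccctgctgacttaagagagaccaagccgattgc
Tcf7l2: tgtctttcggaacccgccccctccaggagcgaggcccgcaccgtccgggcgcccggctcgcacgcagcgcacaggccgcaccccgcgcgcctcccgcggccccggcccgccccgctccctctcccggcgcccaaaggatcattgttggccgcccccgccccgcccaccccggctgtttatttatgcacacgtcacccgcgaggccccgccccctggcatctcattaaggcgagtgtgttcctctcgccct
The motif begins at base 119 of the Axin2 stretch. G and C made up 47.6% of the Axin2 stretch and 73.6% of the Tcf7l2 stretch. A match of letters is a description of the window and shows no binding.

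Wnt5a, the siRNA target, had 6.22, 5.88 and 5.56 FPKM in the stretched Wnt5a siRNA libraries and 6.52, 5.66 and 8.22 FPKM in the stretched control libraries. It had 6.15, 4.60 and 6.81 FPKM in the unstretched Wnt5a siRNA libraries and 12.3, 10.4 and 11.6 FPKM in the unstretched control libraries. Only the unstretched control stood high, so the siRNA is visible in the target without stretch (log2 change −0.87 ± 0.14, SE, limma adjusted p = 0.00142) but not under stretch (−0.17 ± 0.14, 95% interval −0.47 to 0.14, limma adjusted p = 0.387). For the stretched pair the target thus gave no check of the labels. In control siRNA cells Wnt5a was itself lower with stretch, at 59.5% of the unstretched mean (−0.68 ± 0.14, limma adjusted p = 0.00139). The stretch changes of Wnt5a differed between the siRNAs (0.70 ± 0.20, limma adjusted p = 0.0244). That difference did not pass without some single libraries (limma adjusted p = 0.0514 to 0.0559). Stretch with control siRNA thus also went with less Wnt5a transcript.

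Among the libraries the third stretched control stood apart from its group. Its log2 values differed from those of replicates 1 and 2 with an SD of 0.393 and 0.426, while in the remaining pairs of replicates the SD lay between 0.205 and 0.288. Calls of the 10 genes that change without it are given both ways, and counts over gene lists are followed by their range over all alternatives. The sum of FPKM was also higher in stretched libraries, 619742 to 659933 with Wnt5a siRNA and 676014 to 709021 with control siRNA, than in unstretched ones, 575161 to 607276 with Wnt5a siRNA and 588509 to 598628 with control siRNA. Scaling each library to a common sum (TPM) shifted the median gene to −0.20 (log2) for stretch with control siRNA, −0.12 for stretch with Wnt5a siRNA and 0.11 for Wnt5a siRNA under stretch, where the median in the deposited FPKM was 0.01, −0.01 and 0.0021. The share of calls that were higher was then 24.2%, 22.3% and 73.5% in these comparisons, against 50.6%, 52.7% and 48.2% in the deposited FPKM. For the difference between the stretch changes with each siRNA it was 66.8% against 49.0%.

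The 10 transcripts spanned a wide range of levels per length. Averaged over the 12 libraries, Ctnnb1 stood at 159 FPKM, above 94.3% of the tested genes, followed by Dkk3 at 94.4 and Sfrp1 at 43.4 FPKM. Sfrp2 and Tcf7l2 were next at 9.15 and 8.56 FPKM and overlapped in range, from 5.28 to 14.8 FPKM for Sfrp2 and from 4.85 to 12.7 FPKM for Tcf7l2. Sfrp4 (3.95 FPKM), Wif1 (2.62 FPKM) and Lef1 (1.38 FPKM) were low and also overlapped. Axin2 and Dkk2 averaged 0.571 and 0.416 FPKM. The highest library exceeded the lowest by 12.4 times for Sfrp4 and by 1.20 times for Ctnnb1, the widest and the narrowest span of the 10.

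**Figure D1:**
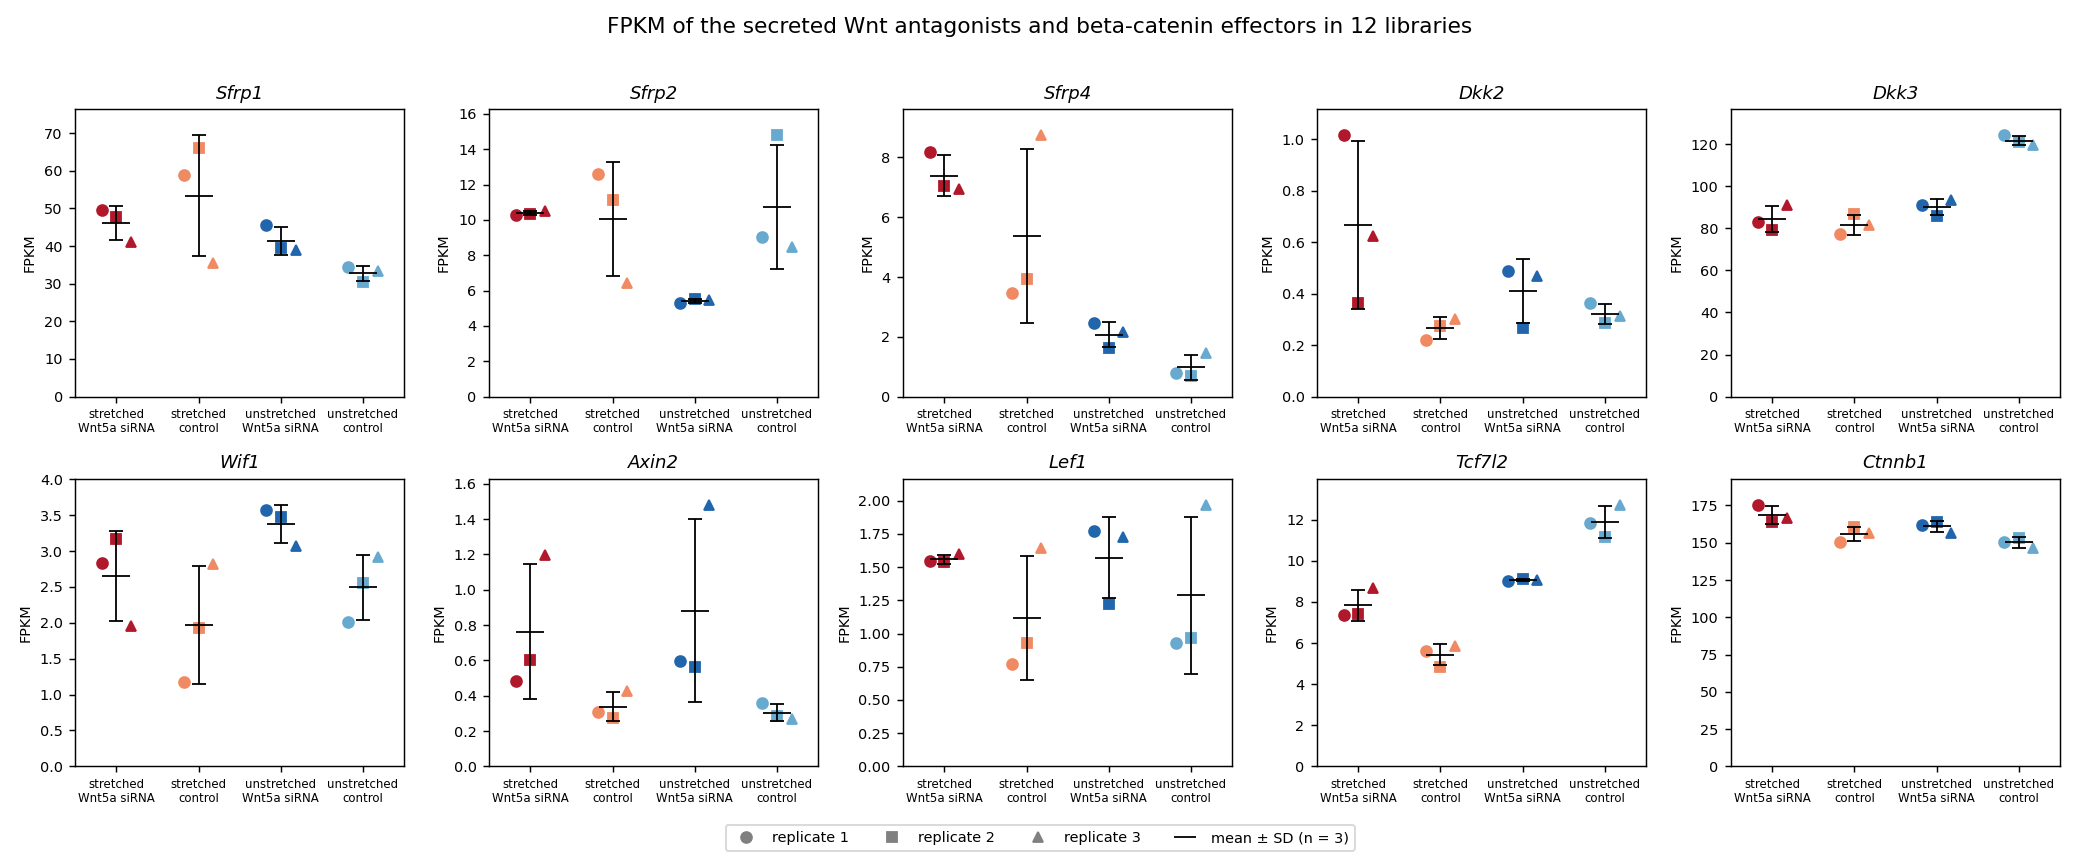
Expression in FPKM (vertical axes, linear, starting at 0) of the 10 genes in the 12 libraries, by group along the horizontal axes, with each replicate as a symbol and the group mean ± SD (n = 3) in black. Tcf7l2 and Dkk3 stand highest in the unstretched control, Sfrp4 stands higher in the stretched groups than in their unstretched counterparts, and replicate 3 of the stretched control lies away from its group in Sfrp1, Sfrp2 and Sfrp4.

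Each gene was compared in limma on log2(FPKM + 1), and a gene is called when its p, adjusted over all 10518 tested genes, was under 0.05. Changes on this scale understate those of low genes. Where groups are said to lie apart or to overlap, the share of all genes that do so was not counted. With control siRNA stretch raised Sfrp1 and Sfrp4 and lowered Dkk3 and Tcf7l2, 2 of 8 tested members higher and 2 lower, where 27.5% of all tested genes were called higher and 26.8% lower. With Wnt5a siRNA stretch raised Sfrp2 and Sfrp4 and lowered no member, against 8.44% of genes higher and 7.59% lower. Under stretch Wnt5a siRNA raised 1 member, Tcf7l2, against 13.2% of genes higher and 14.2% lower. Without stretch it lowered 3 members, Sfrp2, Dkk3 and Tcf7l2, and raised none, against 14.6% of genes higher and 13.9% lower. The change with stretch was more positive with Wnt5a siRNA than with control siRNA for 3 members, again Sfrp2, Dkk3 and Tcf7l2, against 11.7% of genes higher and 12.1% lower by this test of the difference. The comparisons share libraries, the unstretched control entering both the stretch comparison with control siRNA and the siRNA comparison without stretch, so their calls are not independent.

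**Figure D2:**
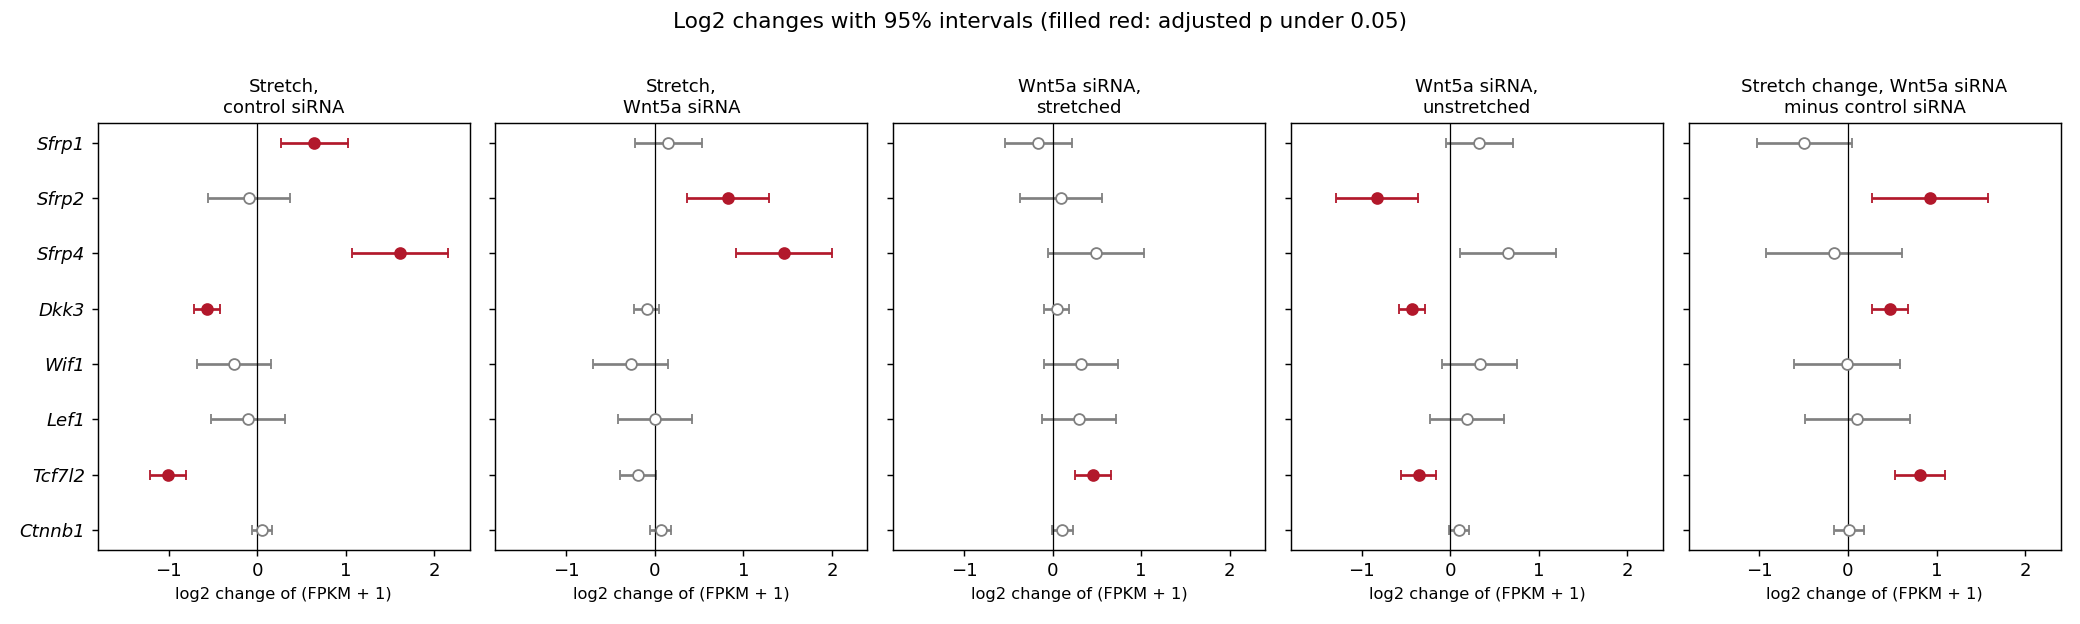
Log2 change of (FPKM + 1) (horizontal axes) with its 95% interval for the 8 tested genes in the 4 pairwise comparisons and, at the right, for the change with stretch in Wnt5a siRNA minus that in control siRNA cells. Filled red points have a limma adjusted p under 0.05, and Tcf7l2 reaches −1.01 with stretch in control siRNA cells and 0.81 in the difference.

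Tcf7l2, a TCF/LEF factor that carries beta-catenin to its target genes, had the clearest pattern of the intracellular members. It had 7.38, 7.43 and 8.69 FPKM in stretched Wnt5a siRNA, 5.59, 4.85 and 5.85 FPKM in stretched control, 9.003, 9.13 and 9.07 FPKM in unstretched Wnt5a siRNA and 11.9, 11.2 and 12.7 FPKM in unstretched control libraries. None of the 4 groups overlapped another, with the unstretched control at the top and the stretched control at the bottom. In control siRNA cells stretch brought it to 45.6% of the unstretched mean (log2 change −1.01 ± 0.09, limma adjusted p = 5.0e-06). In Wnt5a siRNA cells the stretched mean was 86.4% of the unstretched one, which did not pass (−0.19 ± 0.09, 95% interval −0.39 to 0.01, limma adjusted p = 0.182).

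The siRNA comparison of Tcf7l2 ran in opposite directions with and without stretch. Under stretch the Wnt5a siRNA mean was 1.44 times the control mean (log2 change 0.46 ± 0.09, limma adjusted p = 0.00592), and without stretch it was 76.1% of the control mean (−0.36 ± 0.09, limma adjusted p = 0.0135). The stretch changes differed by 0.81 ± 0.13 (limma adjusted p = 0.00234), a call that held in all 18 alternatives. Of the other Tcf7l2 calls, the one without stretch did not pass when unstretched control 3 was left out (−0.31, limma adjusted p = 0.0614). Between 119 and 275 fragments stood behind each of these values, as recovered from the steps between FPKM values, with the smallest whole step taken as 1 fragment.

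Lef1, another factor of the same family, was low and passed in no comparison. It had 1.54, 1.54 and 1.60 FPKM in stretched Wnt5a siRNA, 0.773, 0.925 and 1.65 FPKM in stretched control, 1.77, 1.22 and 1.72 FPKM in unstretched Wnt5a siRNA and 0.931, 0.963 and 1.97 FPKM in unstretched control libraries. Replicate 3 of each control group lay above the Wnt5a siRNA values, while replicates 1 and 2 lay below them. The log2 change with Wnt5a siRNA was 0.30 ± 0.19 under stretch (95% interval −0.12 to 0.71) and 0.19 ± 0.19 without it (−0.23 to 0.61). Between 6 and 16 fragments a library stood behind these values.

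Ctnnb1, which encodes beta-catenin, was abundant and nearly level. It had 175, 164 and 166 FPKM in stretched Wnt5a siRNA, 151, 160 and 157 FPKM in stretched control, 162, 164 and 157 FPKM in unstretched Wnt5a siRNA and 151, 153 and 146 FPKM in unstretched control libraries. The Wnt5a siRNA libraries lay above the control libraries at each stretch state, by 1.08 times under stretch and 1.07 times without, and no comparison passed. The 95% intervals of the log2 change were −0.01 to 0.23 for the siRNA under stretch, −0.02 to 0.22 without stretch and −0.06 to 0.17 for stretch with control siRNA. The call and the direction depended on the scaling, since with TPM Ctnnb1 was lower with stretch in control siRNA cells (−0.17, limma adjusted p = 0.0197) and higher with Wnt5a siRNA under stretch (0.22, limma adjusted p = 0.0143). After quantile normalization the siRNA comparisons also passed, at 0.23 under stretch (limma adjusted p = 0.0138) and 0.16 without (limma adjusted p = 0.0443). The level of the transcript says nothing of the stability of the protein, by which this pathway works.

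Axin2, the feedback scaffold with the motif shown above, was higher in every Wnt5a siRNA library than in every control library. The share of all genes that separate the siRNAs in this way was not counted. It had 0.485, 0.601 and 1.20 FPKM in stretched Wnt5a siRNA and 0.306, 0.274 and 0.429 FPKM in stretched control libraries, and 0.599, 0.565 and 1.48 FPKM in unstretched Wnt5a siRNA and 0.360, 0.285 and 0.266 FPKM in unstretched control libraries. These values rested on 13, 15 and 31 fragments in stretched Wnt5a siRNA, 7, 7 and 10 in stretched control, 16, 15 and 38 in unstretched Wnt5a siRNA and 8, 7 and 6 in unstretched control libraries. Replicate 3 of each Wnt5a siRNA group was the highest library of its group.

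Because Axin2 stayed under the filter it has no main test. Tested with all genes, its log2 change with Wnt5a siRNA was 0.50 without stretch (limma adjusted p = 0.0732) and 0.38 under stretch (limma adjusted p = 0.161), and neither passed. The ratio of mean FPKM was 2.90 without stretch and 2.26 under stretch, on the FPKM scale without a pseudocount. Without replicate 3 of the Wnt5a siRNA group the ratio was 1.91 without stretch and 1.615 under stretch. With stretch the ratio was 0.865 in Wnt5a siRNA cells (1.31 without unstretched Wnt5a siRNA 3) and 1.11 in control siRNA cells, and the libraries overlapped.

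**Figure D3:**
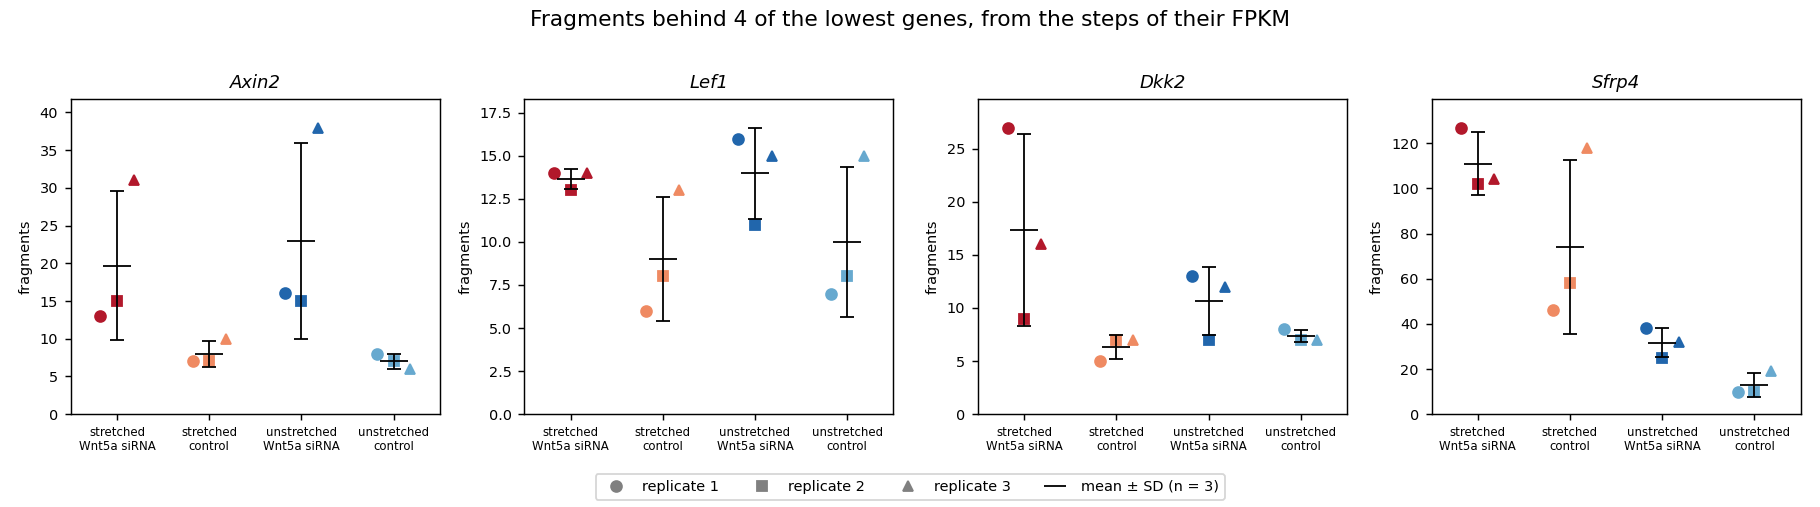
Fragments per library (vertical axes, linear, starting at 0) behind Axin2, Lef1, Dkk2 and Sfrp4, recovered from the steps of their FPKM, by group along the horizontal axes, with replicates as symbols and the mean ± SD (n = 3) in black. Axin2 runs from 6 to 38 fragments, and every Wnt5a siRNA library has more than every control library. The share of all genes with such a separation was not counted.

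Among the antagonists, Sfrp4, a secreted Frizzled-related protein, changed most with stretch. It had 8.18, 7.05 and 6.93 FPKM in stretched Wnt5a siRNA and 2.45, 1.62 and 2.15 FPKM in unstretched Wnt5a siRNA libraries. It had 3.46, 3.92 and 8.74 FPKM in stretched control and 0.777, 0.703 and 1.45 FPKM in unstretched control libraries. Every stretched library was above every unstretched one, and stretched control 3 was far above its own replicates. The stretched mean was 3.56 times the unstretched mean with Wnt5a siRNA (log2 change 1.45 ± 0.25, limma adjusted p = 0.00279) and 5.49 times with control siRNA (1.62 ± 0.25, limma adjusted p = 1.8e-04). Both calls held in all 19 alternatives.

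With Wnt5a siRNA Sfrp4 was 1.38 times the control under stretch and 2.12 times without it. Neither passed (log2 change 0.49 ± 0.25, limma adjusted p = 0.163, and 0.65 ± 0.25, limma adjusted p = 0.071). Without stretched control 3 both passed (0.84, limma adjusted p = 0.00222, and 0.65, limma adjusted p = 0.00620). The siRNA comparison without stretch also passed with a pseudocount of 0.1 (1.06, limma adjusted p = 0.0313), with the replicate number as a block (0.65, limma adjusted p = 0.0457) and when only its own 6 libraries were fitted (limma adjusted p = 0.0241). Fragments numbered 102 to 127 in stretched Wnt5a siRNA, 46 to 118 in stretched control, 25 to 38 in unstretched Wnt5a siRNA and 10 to 19 in unstretched control libraries.

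Sfrp1, the most abundant Sfrp here, had 49.6, 47.6 and 41.1 FPKM in stretched Wnt5a siRNA and 45.7, 39.5 and 38.9 FPKM in unstretched Wnt5a siRNA libraries. It had 58.9, 65.9 and 35.4 FPKM in stretched control and 34.3, 30.5 and 33.3 FPKM in unstretched control libraries. The groups with control siRNA were apart, although stretched control 3 came close to the unstretched values, and the groups with Wnt5a siRNA overlapped. Stretch with control siRNA gave a log2 change of 0.65 ± 0.17 (limma adjusted p = 0.00763), which passed in all 19 alternatives, and stretch with Wnt5a siRNA 0.15 ± 0.17 (limma adjusted p = 0.597).

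The remaining Sfrp1 comparisons changed their call when 1 library was left out. The difference between its stretch changes was −0.49 ± 0.25 (limma adjusted p = 0.164), and without stretched control 3 it was −0.76 (limma adjusted p = 0.00150). In the same way the siRNA comparison of Sfrp1 was −0.16 under stretch (limma adjusted p = 0.504) and −0.43 without that library (limma adjusted p = 0.00384). Without stretch it was 0.33 (limma adjusted p = 0.183), and leaving that library out of the common spread brought the adjusted p to 0.0109 in limma. That comparison also passed when only its own libraries were fitted (limma adjusted p = 0.0126).

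Sfrp2, a close relative of Sfrp1, was lowest in the unstretched Wnt5a siRNA libraries. It had 10.3, 10.3 and 10.5 FPKM in stretched Wnt5a siRNA, 12.6, 11.1 and 6.41 FPKM in stretched control, 5.28, 5.50 and 5.49 FPKM in unstretched Wnt5a siRNA and 9.02, 14.8 and 8.45 FPKM in unstretched control libraries. The unstretched Wnt5a siRNA group overlapped no other group, and the remaining 3 groups overlapped one another. Stretch with Wnt5a siRNA gave 0.83 ± 0.21 (limma adjusted p = 0.0209), and Wnt5a siRNA without stretch −0.83 ± 0.21 (limma adjusted p = 0.0132). Stretch with control siRNA gave −0.10 ± 0.21 (95% interval −0.56 to 0.37).

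The Sfrp2 calls were near the threshold. Without any 1 of the 6 libraries compared, the stretch call with Wnt5a siRNA had a limma adjusted p of 0.0532 to 0.0693, with the change at 0.81 to 0.83. The siRNA call without stretch was −0.60 without unstretched control 2 (limma adjusted p = 0.0538). The difference of the stretch changes, 0.92 ± 0.30 (limma adjusted p = 0.0436), passed in 9 of 18 alternatives. It did not pass without any 1 of the Wnt5a siRNA libraries (limma adjusted p = 0.0637 to 0.0875), without unstretched control 2 (0.69, limma adjusted p = 0.095), without the filter or without the eBayes trend.

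Dkk3, named for its likeness to the Dickkopf proteins though not known as a classical Lrp antagonist, was highest in the unstretched control. It had 82.9, 79.3 and 91.0 FPKM in stretched Wnt5a siRNA, 77.0, 86.6 and 81.5 FPKM in stretched control, 90.9, 85.8 and 93.3 FPKM in unstretched Wnt5a siRNA and 124, 121 and 119.6 FPKM in unstretched control libraries. The first 3 groups formed a common range of 77.0 to 93.3 FPKM, and the unstretched control lay wholly above it. Stretch with control siRNA gave −0.57 ± 0.07 (limma adjusted p = 2.5e-05) and Wnt5a siRNA without stretch −0.43 ± 0.07 (limma adjusted p = 0.00122). With Wnt5a siRNA stretch gave −0.09 ± 0.07 (95% interval −0.24 to 0.05, limma adjusted p = 0.378), and the difference of the stretch changes was 0.48 ± 0.09 (limma adjusted p = 0.00541). The 3 calls held in every alternative run.

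Wif1, the Wnt inhibitory factor, was low and passed in no comparison. It had 2.84, 3.17 and 1.96 FPKM in stretched Wnt5a siRNA, 1.17, 1.93 and 2.81 FPKM in stretched control, 3.57, 3.48 and 3.07 FPKM in unstretched Wnt5a siRNA and 2.01, 2.55 and 2.91 FPKM in unstretched control libraries. Without stretch the Wnt5a siRNA group lay wholly above its control, and under stretch the groups overlapped. The siRNA comparison gave 0.33 ± 0.19 without stretch (95% interval −0.09 to 0.75) and 0.32 ± 0.19 under stretch (−0.10 to 0.74). Without stretched control 3 the comparison under stretch passed (0.52, limma adjusted p = 0.0326), as did stretch with control siRNA (−0.46, limma adjusted p = 0.0426). Fragments numbered 18 to 64 a library.

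Dkk2, a Dickkopf protein that binds the Lrp co-receptors, was the lowest member. It had 1.01, 0.363 and 0.623 FPKM in stretched Wnt5a siRNA, 0.220, 0.276 and 0.302 FPKM in stretched control, 0.490, 0.265 and 0.470 FPKM in unstretched Wnt5a siRNA and 0.363, 0.287 and 0.313 FPKM in unstretched control libraries. The stretched Wnt5a siRNA libraries lay above the stretched control libraries and were widely spread, and the unstretched groups overlapped. Tested with all genes and no filter, the siRNA comparison under stretch was 0.38 (limma adjusted p = 0.0479), resting on 27, 9 and 16 fragments against 5, 7 and 7. The other 3 pairwise comparisons of Dkk2 did not pass there (limma adjusted p = 0.257 to 0.725).

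Markers of other heart cells moved with some of these results. In bulk RNA, more cells of a type and more RNA per cell cannot be told apart. Counts over this and the later lists stand against the shares of all tested genes. Stretch raised 27.5% and lowered 26.8% with control siRNA, and raised 8.44% and lowered 7.59% with Wnt5a siRNA. Wnt5a siRNA raised 13.2% and lowered 14.2% under stretch, and raised 14.6% and lowered 13.9% without. The stretch change was more positive with Wnt5a siRNA for 11.7% and more negative for 12.1%. Over 11 fibroblast markers listed of 12, the summed level was 8863 to 9484 FPKM in stretched Wnt5a siRNA, 4847 to 8400 in stretched control, 5273 to 5558 in unstretched Wnt5a siRNA and 3508 to 4015 in unstretched control libraries. Stretched control 3 was the library at 8400, its replicates being at 4847 and 4891. It was also the stretched control library with the highest Sfrp4 and the lowest Sfrp1 and Sfrp2. This was not particular to the fibroblast markers. The same library was the highest of its group in the macrophage, endothelial, epicardial and Schwann sums given below. In the cardiomyocyte and smooth muscle sums it was the lowest. Of 10 fibroblast markers tested, stretch raised 7 with Wnt5a siRNA (4 to 9 over the alternatives, as in every bracket after a count below) and 7 with control siRNA (4 to 8), and lowered 1 with Wnt5a siRNA (0 to 1). Wnt5a siRNA raised 6 under stretch (1 to 7) and 3 without (1 to 5), where it lowered 1 (1 in every alternative). With TPM scaling stretch raised 5 with Wnt5a siRNA and 4 with control siRNA, and without stretched control 3 it raised 9 and 7. The count of 6 under stretch was 1 without stretched Wnt5a siRNA 3 or without stretched control 1. Col1a2, a defining collagen gene, is listed at 0 in every library, although Col1a1 and Col3a1 were tested and called. A listed 0 therefore cannot be read as absence of the transcript.

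Macrophage and leukocyte markers, 10 genes of which 9 were tested, summed to 288 to 329 FPKM in stretched Wnt5a siRNA, 253 to 418 in stretched control, 117 to 125 in unstretched Wnt5a siRNA and 129 to 167 in unstretched control libraries. Stretch raised 8 of the 9 with Wnt5a siRNA (4 to 8) and 6 with control siRNA (3 to 8, the 3 with TPM scaling), and Wnt5a siRNA lowered 1 under stretch (0 to 3) and 5 without (2 to 7). Cardiomyocyte markers, 9 genes listed of 10, were the most abundant set, with sums of 16649 to 24906 FPKM in stretched Wnt5a siRNA, 32209 to 36988 in stretched control, 17997 to 27266 in unstretched Wnt5a siRNA and 23045 to 25049 in unstretched control libraries, and none is at 0. Stretch lowered 3 of the 9 with Wnt5a siRNA (1 to 5). With control siRNA it raised 3 (1 to 3) and lowered 4 (4 to 6). The median log2 change of the 9 was −0.36 with control siRNA, so the higher sum in stretched control does not stand for most of these markers. Nppa was higher there (2.42 ± 0.35, limma adjusted p = 1.1e-04), while Ryr2, Pln and Myh6 were lower. Wnt5a siRNA lowered 3 under stretch (0 to 6) and, without it, raised 2 (2 in every alternative) and lowered 4 (4 to 6). The highest of the ranges for stretch with Wnt5a siRNA and for the siRNA under stretch came without stretched control 3. The part of any of these in the changes of the antagonists and of Tcf7l2 was not tested.

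The other secreted modulators of the pathway numbered 21 written genes, of which 17 were listed and 7 tested. With control siRNA stretch raised 4 of the 7 (1 to 5) and lowered none (0 to 1), with a median log2 change of 0.49 against 0.01 over all genes. Of all tested genes 27.5% were called higher and 26.8% lower in this comparison. With TPM scaling 1 of the 7 was higher and 1 lower, and without stretched control 2 the number higher was 2. Frzb, also called Sfrp3, averaged 5.19 ± 0.406 FPKM in stretched control and 2.099 ± 0.540 FPKM in unstretched control libraries (SD, n = 3 each), a log2 change of 1.01 ± 0.14 (limma adjusted p = 6.9e-05). With Wnt5a siRNA stretch raised 2 of the 7 (1 to 3), with a median of 0.41 against −0.01, and Igfbp4, a secreted binding protein of insulin-like growth factors that also inhibits Wnt signalling, averaged 32.6 ± 1.20 FPKM in stretched Wnt5a siRNA and 16.4 ± 4.39 FPKM in unstretched Wnt5a siRNA libraries (0.98 ± 0.20, limma adjusted p = 0.00656). Wnt5a siRNA raised 2 of the 7 under stretch (0 to 2), Igfbp4 and Rspo3, and 2 without stretch (1 to 2). Without stretched control 1 neither call under stretch passed (limma adjusted p = 0.0561 for Igfbp4 and 0.0762 for Rspo3), and without stretched control 3 another gene was lower. Rspo3, an R-spondin that strengthens Wnt signalling, averaged 3.20 ± 1.32 FPKM in unstretched Wnt5a siRNA and 1.06 ± 0.145 FPKM in unstretched control libraries (0.98 ± 0.21, limma adjusted p = 0.00507). For none of the 7 did the difference between the stretch changes pass (0 to 1 in each direction). Dkk1, the best-known Dickkopf antagonist, is listed at 0 in every library, with the same limit as for Col1a2.

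Of 17 receptor and receptor-turnover genes, 14 were listed and 10 tested. With control siRNA stretch raised 3 (2 to 3), among them Fzd2 (log2 change 0.90 ± 0.16, limma adjusted p = 4.7e-04) and Fzd5 (0.65 ± 0.17, limma adjusted p = 0.00666), and lowered Fzd1 (−0.76 ± 0.12, limma adjusted p = 2.4e-04) and Rnf43, which removes Frizzled receptors from the membrane. Of all tested genes 27.5% were called higher and 26.8% lower in this comparison. The median over the 10 was −0.01, against 0.01 over all genes, and with TPM scaling 2 were higher and 5 lower. Fzd1 averaged 75.5 ± 15.7 FPKM in stretched control and 127 ± 3.63 FPKM in unstretched control libraries. With Wnt5a siRNA no stretch change of the 10 passed (0 to 1 lower). The stretch change differed between the siRNAs for Fzd1 (0.73 ± 0.17, limma adjusted p = 0.0121), Fzd5 (−0.96 ± 0.24, limma adjusted p = 0.0148) and Fzd2 (−0.87 ± 0.23, limma adjusted p = 0.0168), in all 18 alternatives. Wnt5a siRNA lowered Lgr4, a receptor of R-spondins, to 41.8 ± 2.86 FPKM without stretch against 61.6 ± 2.76 FPKM in its control (−0.55 ± 0.12, limma adjusted p = 0.00529). It lowered 2 of the 10 under stretch (1 to 4, the 4 without stretched control 3) and 2 without (1 to 2), where it also raised 1 (0 to 1).

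Ligands other than Wnt5a were scarce, with 2 of 17 listed genes tested, 12 above 0 but under the filter and 3 listed at 0. Wnt4 was higher with Wnt5a siRNA without stretch (0.69 ± 0.18, limma adjusted p = 0.0138) and lower with stretch in Wnt5a siRNA cells (−0.63 ± 0.18, limma adjusted p = 0.0317). The siRNA call did not pass without unstretched Wnt5a siRNA 1 (0.64, limma adjusted p = 0.0544) or 3 (0.55, limma adjusted p = 0.0536). The stretch call did not pass without 4 of its 6 libraries, stretched Wnt5a siRNA 1 and 2 and unstretched Wnt5a siRNA 1 and 3 (limma adjusted p = 0.0961 to 0.124, with the change at −0.63 to −0.49), nor with a pseudocount of 0.1 (limma adjusted p = 0.0543). With control siRNA the stretch change of Wnt4 was −0.37 ± 0.18 (limma adjusted p = 0.101). It passed with a pseudocount of 0.1 (−0.93, limma adjusted p = 0.0381) and with TPM scaling (−0.58, limma adjusted p = 0.0426). The difference between its stretch changes did not pass (−0.27 ± 0.25, limma adjusted p = 0.471). Under stretch the siRNA change of Wnt4 passed only with a pseudocount of 0.1 (1.05, limma adjusted p = 0.0412). Wnt9a passed in no comparison of the main fit.

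Among 17 tested genes of the Dishevelled proteins and the destruction complex, stretch with control siRNA raised 5 (2 to 5) and lowered 3 (2 to 10), with a median of −0.09, and with TPM scaling 2 were higher and 10 lower. In the deposited FPKM 27.5% of all tested genes were called higher and 26.8% lower in this comparison. Ppp2ca, a catalytic subunit of protein phosphatase 2A, rose by 0.43 ± 0.06 on the log2 scale (limma adjusted p = 1.3e-04). Tnks, a tankyrase that marks Axin proteins for degradation, fell by 0.58 (SE 0.10, limma adjusted p = 4.3e-04), to 18.0 ± 3.0 FPKM in stretched control against 27.2 ± 0.823 FPKM in unstretched control libraries. With Wnt5a siRNA no stretch change of the 17 passed (0 to 1 higher, 0 to 4 lower). Wnt5a siRNA raised 3 (0 to 3) and lowered 3 (0 to 7) under stretch, and raised 3 (0 to 3) and lowered 1 (1 to 5) without. Without stretched control 3 the siRNA lowered 7 under stretch and 5 without, and stretch with Wnt5a siRNA raised 1 and lowered 3. With TPM scaling the siRNA lowered none under stretch. The stretch change was more negative with Wnt5a siRNA for 3 genes (1 to 4). Ppp2ca (−0.41 ± 0.09, limma adjusted p = 0.00812) passed in all 18 alternatives, Fbxw11 in 12 and Csnk1d in 7, and with TPM scaling only Ppp2ca of the 3 passed.

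Of 19 tested partners, coactivators and repressors of the TCF factors, stretch with control siRNA raised 3 (0 to 5) and lowered 7 (5 to 9), with a median of −0.03, and with TPM scaling raised none and lowered 9. In the deposited FPKM 27.5% of all tested genes were called higher and 26.8% lower in this comparison. Cby1, a beta-catenin antagonist, followed the same order of groups as Tcf7l2. It averaged 21.6 ± 0.955 FPKM in stretched Wnt5a siRNA, 13.2 ± 1.15 FPKM in stretched control, 22.6 ± 3.61 FPKM in unstretched Wnt5a siRNA and 30.0 ± 5.28 FPKM in unstretched control libraries. Its log2 change was −1.12 ± 0.13 for stretch with control siRNA (limma adjusted p = 2.3e-05) and 0.68 ± 0.13 for Wnt5a siRNA under stretch (limma adjusted p = 0.00489). Tle2, a corepressor of TCF factors, was lower with stretch in control siRNA cells (−1.26 ± 0.16, limma adjusted p = 5.3e-05). Stretch with Wnt5a siRNA lowered 1 of the 19 (0 to 5, the 5 with TPM scaling), Tle2, which did not pass without stretched Wnt5a siRNA 1 (−0.62, limma adjusted p = 0.0549). Wnt5a siRNA raised 2 (1 to 5) and lowered 3 (0 to 6) under stretch, where TPM scaling turned the balance to 5 higher and 1 lower and leaving out stretched control 3 gave 3 higher and 6 lower. Without stretch it raised 1 (0 to 2) and lowered 2 (1 to 5). The stretch change was more positive for 2 (1 to 3) and more negative for 1 (0 to 3), Cby1 passing in all 18 alternatives, Ctnnd1 in 6 and Pygo2 in 3. With the replicate number as a block Ctnnd1 and Pygo2 did not pass (limma adjusted p = 0.0522 for Ctnnd1 and 0.0594 for Pygo2).

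Known beta-catenin targets moved in both directions. Of 29 written genes, which include Axin2 and Lef1, 24 were listed and 18 tested. With control siRNA stretch raised 8 (6 to 9) and lowered 4 (4 in every alternative), where 27.5% of all tested genes were called higher and 26.8% lower. The median over the 18 was 0.20 against 0.01 over all genes. Ccnd1, the cell-cycle gene cyclin D1, averaged 134 ± 10.4 FPKM in stretched control and 36.0 ± 2.43 FPKM in unstretched control libraries (log2 change 1.87 ± 0.12, limma adjusted p = 1.1e-06), and Cd44, a hyaluronan receptor, rose by 0.88 (limma adjusted p = 1.4e-05). Nkd1, a feedback inhibitor of the pathway, fell to 0.744 ± 0.110 FPKM in stretched control against 2.71 ± 0.380 FPKM in unstretched control libraries (−1.08 ± 0.13, limma adjusted p = 3.7e-05). Jun, Ccnd1 and several others of these genes are also controlled by other pathways, so the list does not read beta-catenin alone.

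In Wnt5a siRNA cells stretch raised 3 of these 18 targets (2 to 4) and lowered 2 (0 to 3), with a median of 0.09. Mmp7, a matrix metalloproteinase, averaged 4.78 ± 0.871 FPKM in stretched Wnt5a siRNA and 0.722 ± 0.306 FPKM in unstretched Wnt5a siRNA libraries (1.75 ± 0.23, limma adjusted p = 5.8e-04). Under stretch Wnt5a siRNA raised 6 (1 to 7) and lowered 5 (1 to 6), with a median of 0.17. Nkd1 was higher there, at 2.21 ± 0.495 FPKM in stretched Wnt5a siRNA against 0.744 ± 0.110 FPKM in stretched control libraries (0.87 ± 0.13, limma adjusted p = 0.00202), while Fosl1, a subunit of the AP-1 factor, was lower (−0.99 ± 0.21, limma adjusted p = 0.00668). Fitted on the stretched groups alone, it raised 1 and lowered 2. Without stretch it raised 5 (3 to 8) and lowered none in any alternative, with a median of 0.24. Wisp1 averaged 34.6 ± 0.454 FPKM in unstretched Wnt5a siRNA and 18.8 ± 0.804 FPKM in unstretched control libraries (0.85 ± 0.11, limma adjusted p = 5.8e-04), and Sox9 rose by 0.71 (limma adjusted p = 0.00176). The stretch change differed for 9 of the 18, more positive with Wnt5a siRNA for 3 (2 to 3) and more negative for 6 (5 to 8), Ccnd1 (−0.98 ± 0.17, limma adjusted p = 0.00316) and Sox9 (−0.86 ± 0.17, limma adjusted p = 0.00512) among those 6.

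**Figure D4:**
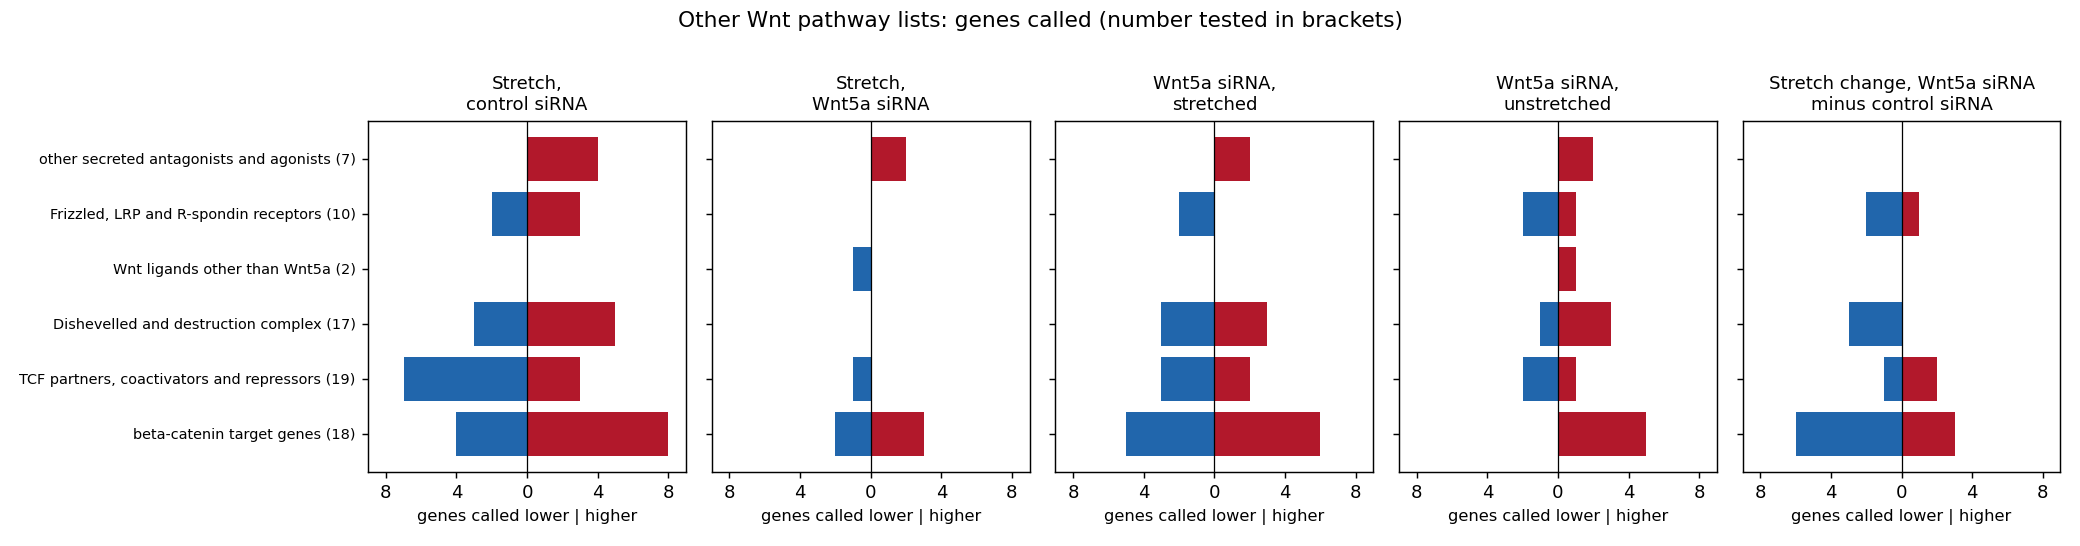
Number of genes called lower (blue, to the left) and higher (red, to the right) in each of 6 other Wnt pathway lists (rows, with the number tested in brackets) in the 4 pairwise comparisons and, at the right, for the change with stretch in Wnt5a siRNA minus that in control siRNA cells. Among the beta-catenin targets 8 were higher and 4 lower with stretch in control siRNA cells, and 3 higher and 2 lower with stretch in Wnt5a siRNA cells. Of all tested genes 27.5% were higher and 26.8% lower in the first comparison, and 8.44% higher and 7.59% lower in the second.

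The genes whose log2 level followed a member most closely over the 12 libraries are given as a description, since all share the libraries and the group differences. For Tcf7l2 they were Dpf3 (Pearson r = 0.984), Disp1 (0.981) and Smim5 (0.980), and for Dkk3 they were Lrrk2 (0.978), Pdk4 (0.976) and Apobec2 (0.974). For Sfrp4 they were Rpl24 (0.981), Fap (0.975) and Rpl23 (0.974), of which Fap encodes fibroblast activation protein. Sfrp1 was followed by Cdca4 (0.958), Jun (0.940) and Dusp16 (0.940), and Sfrp2 by C1s (0.939), Lamtor4 (0.893) and C1r (0.881), C1s and C1r being proteases of the complement system. Among the members themselves Dkk3 and Tcf7l2 were the most alike (r = 0.83 over 12 libraries).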

How the data were processed

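The 12 RNA libraries came from rat cardiomyocytes. The labels' protocols name a miRNeasy kit for total RNA and a TruSeq stranded mRNA kit for the libraries. TopHat2 2.1.1, Bowtie2, Cuffdiff 2.2.1 and the build rn6 are named in the submitters' processing notes, without their roles. What the authors deposited is FPKM per gene symbol, 1 table a library. No source used here states the annotation, the counting by strand, the scaling between libraries or how ambiguous reads were shared out, so overlapping and antisense genes cannot be told apart.

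From the FPKM, log2(FPKM + 1) was taken for the 10518 genes with at least 1 FPKM in at least 3 libraries. All 12 libraries entered 1 limma fit with a mean per group (limma 3.58.1, R 4.3.3, eBayes with a trend, 2-sided), with p-values adjusted by Benjamini and Hochberg over all genes of a comparison and 0.05 as the threshold. The fit was also run on simulated data with independent normal noise. These held no library that stood apart and no shift of summed FPKM, so the run does not cover either. The comparisons were stretch with each siRNA, Wnt5a siRNA with and without stretch, and the difference of the stretch changes. Each result was also computed with a pseudocount of 0.1, no filter, TPM scaling, quantile normalization, a replicate block, no eBayes trend, only the groups compared, and leaving out each library.

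Depth is not given with the FPKM. The FPKM of a low gene moves in steps worth 1 fragment each: among 1523 genes under 0.5 FPKM that were above 0 in 3 or more libraries, 95.5% fell on whole steps (tolerance 0.01), and the worth of a step varied by a factor of 1.21 between libraries. Fragments could be counted in this way for Wnt5a and for 7 members, not for Sfrp1, Dkk3 or Ctnnb1, and were used only as a description. Fragments are not independent molecules, so the replicates set the precision.

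The members and the gene lists were chosen with earlier results of these data known. All 10 members are named. From each other list the text gives the calls and names up to 4 called genes with the smallest adjusted p, mostly those called in every alternative, and for each tested member the 3 most correlated genes were found. Same-numbered libraries of the Wnt5a siRNA groups deviated from their group means together, with correlations of 0.143 to 0.242 over the 3 pairs, while the labels do not say what a number shares. The replicate block changed no call of a member in stretch with Wnt5a siRNA.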

Additional observations from a re-analysis of the deposited data

Results flagged for a closer look

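For 3 of the 8 tested genes the change with stretch differed between Wnt5a siRNA and control siRNA cells (limma test of that difference). Over all tested genes 11.7% were called more positive with Wnt5a siRNA and 12.1% more negative by the same test. For Sfrp2 the difference was 0.92 on the log2 scale, with changes of 0.83 in Wnt5a siRNA and −0.10 in control siRNA cells. This Sfrp2 call was lost in several alternatives, among them without unstretched control 2 (0.69, limma adjusted p = 0.095). For Dkk3 it was 0.48, with changes of −0.09 in Wnt5a siRNA and −0.57 in control siRNA cells. For Tcf7l2 it was 0.81, with changes of −0.19 in Wnt5a siRNA and −1.01 in control siRNA cells. Groups of 3 libraries were not tested for single outlying values.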

How the results depend on the processing

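Over 752 combinations of a member, a comparison and an alternative, 720 kept their direction where called and their side of the threshold, 17 lost a call, 14 gained one and 1 changed direction. That one was Ctnnb1 for stretch with control siRNA, at −0.17 with TPM scaling. Wnt5a siRNA under stretch called 2 members, not 1, with no filter, with TPM scaling and with quantile normalization, and 1208 of all genes, not 2875, with only the groups compared. Wnt5a siRNA without stretch called 5 members, not 3, with only the groups compared. Leaving out each library in turn gave 4 to 5 members for stretch with control siRNA, 1 to 2 for stretch with Wnt5a siRNA, 1 to 4 for Wnt5a siRNA under stretch, 2 to 5 for it without stretch and 2 to 4 for the difference of the stretch changes. Over all genes these ranges were 4830 to 6035, 849 to 2625, 1102 to 4668, 1774 to 3935 and 1574 to 3638. The highest of each range came without stretched control 3. For members in stretch with Wnt5a siRNA that highest, 2, was also the count with all libraries, and leaving out unstretched control 3 gave it too.

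With the replicate number as a block, 4 members were called for stretch with control siRNA, 2 for stretch with Wnt5a siRNA, 1 for Wnt5a siRNA under stretch, 4 for it without stretch and 3 for the difference. The member gained was Sfrp4 (limma adjusted p = 0.0457), and the block changed no other call of a member. Same-numbered libraries correlated at −0.0194 to 0.249 for stretch with control siRNA, 0.0947 to 0.231 for Wnt5a siRNA under stretch and 0.0583 to 0.186 for it without stretch. Axin2, Dkk2 and Lef1 rested on 5 to 38 fragments a library. The causes of the differences between settings were not tested.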

Other observations

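Markers of other cell types that the text has not described also changed. Brackets after a count give its range over the alternatives. The shares of all tested genes called in each comparison are given with the fibroblast markers above. Endothelial markers, 10 genes with 9 tested, summed to 169.5 to 198 FPKM in stretched Wnt5a siRNA, 147 to 179 in stretched control, 122 to 130 in unstretched Wnt5a siRNA and 105 to 119 in unstretched control libraries. Stretch raised 6 of the 9 with Wnt5a siRNA (3 to 7) and 2 with control siRNA (1 to 3). It lowered none with Wnt5a siRNA (0 to 1) and none with control siRNA (0 to 2, the 2 with TPM scaling). The difference between the stretch changes passed for 3 genes, more positive with Wnt5a siRNA (0 to 5), and for none of them when stretched Wnt5a siRNA 1 was left out (limma adjusted p = 0.0952 for Tie1, 0.0992 for Kdr and 0.106 for Cdh5). Cdh5 also did not pass with the replicate number as a block (limma adjusted p = 0.0674). They are named here because of these values. Wnt5a siRNA raised 2 (1 to 5) and lowered 1 (0 to 1) under stretch. Without stretch it raised 1 (0 to 1) and lowered none (0 to 1). The median log2 change of the 9 was −0.36 there, so the higher sum does not stand for most of these markers.

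Smooth muscle and pericyte markers, 10 genes all tested, summed to 3289 to 3793 FPKM in stretched Wnt5a siRNA, 4223 to 7123 in stretched control, 4413 to 6492 in unstretched Wnt5a siRNA and 4631 to 5727 in unstretched control libraries. Stretch raised 2 (1 to 3) and lowered 5 (2 to 7) of these with Wnt5a siRNA, and raised 2 (1 to 3) and lowered 3 (3 in every alternative) with control siRNA. Wnt5a siRNA raised 2 (1 to 4) and lowered 5 (1 to 5) under stretch and raised 2 without (1 to 3). Epicardial markers, 6 tested, summed to 28.9 to 30.4 FPKM in stretched Wnt5a siRNA, 21.1 to 26.9 in stretched control, 22.1 to 24.95 in unstretched Wnt5a siRNA and 18.5 to 19.9 in unstretched control libraries, with at most 3 of the 6 higher in any comparison or alternative. Schwann and neuronal markers, 4 tested, summed to 25.0 to 33.9 FPKM in stretched Wnt5a siRNA, 19.7 to 33.4 in stretched control, 19.0 to 21.7 in unstretched Wnt5a siRNA and 16.1 to 17.3 in unstretched control libraries, with at most 2 of the 4 higher. The part of these in the changes of the Wnt genes was not tested.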
